A study of Mus musculus with 12 samples.

Results

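The livers of Siah2 knockout (Siah2 KO) females were set against those of Siah2 KO males to describe which autosomal liver programs differ between the sexes when both carry the deletion. The samples are 6 of the 12 mice of the series, 3 Siah2 KO females (mice 1070, 1104 and 1105) and 3 Siah2 KO males (mice 1075, 1076 and 1081), chosen by the sex and genotype in their labels. The remaining mice, 3 wild type females and 3 wild type males, serve here for comparison. All were C57BL/6 mice of about 20 weeks on normal chow under a 12:12 light-dark cycle, and livers were taken at ZT10, 10 h after lights on. The knockouts were homozygous for the Siah2 deletion (Siah2-/-) in every cell of the body, and the wild type and knockout mice came from separate, related lines founded from crosses between heterozygotes. Siah2 encodes an E3 ubiquitin ligase, an enzyme that marks proteins for degradation. Poly(A) RNA was sequenced from its 3′ end (QuantSeq), so a read count does not grow with transcript length. The sources used here give no stage of the oestrous cycle. The paper describes individual livers, while the labels' extraction text speaks of pools of 3 mice; if animals were pooled, p-values measure the spread between pools.

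The liver is among the most sexually dimorphic organs of the mouse. Males release growth hormone in pulses and females almost continuously, and in hepatocytes the pattern is read by the growth hormone receptor, the kinase JAK2 and the transcription factor STAT5b. Pulsed signalling is known to sustain the male set of cytochrome P450 enzymes, pheromone carriers and serpins, and steady signalling the female set, with repressors such as BCL6 and CUX2 acting downstream. Many of these genes oxidise or conjugate steroids, drugs and bile acids.

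The 6 libraries held 1671189 to 4056144 counts on 23420 gene symbols, and the ribosomal RNA precursor Rn45s took 6.44% to 17.9% of them. Levels are given below in CPM, read counts scaled to a common library size by TMM over the 12 libraries, and listed in the order of mice 1070, 1104 and 1105 for females and 1075, 1076 and 1081 for males. Fold changes are female over male on the log2 scale ± SE, so that a positive value is higher in females. A gene was called when its adjusted p in edgeR's quasi-likelihood test of the 6 libraries was below 0.05. The sex labels were met by the data: Xist averaged 87.9 ± 16.2 CPM (SD, n = 3) in Siah2 KO females and 0.497 ± 0.328 in males, while Ddx3y had 0 counts over the females and 557 over the males. Siah2 itself was read at 10.0, 12.5 and 9.63 CPM in Siah2 KO females, at 9.42, 17.4 and 15.0 in Siah2 KO males and at 11.5 to 27.1 in wild type mice. The sources used here do not say whether the 3′ tag lies in the deleted part, so these counts do not check the deletion. Between the Siah2 KO sexes Siah2 did not pass the test (-0.37 ± 0.30, adjusted p = 0.491). The first principal component of the 500 most variable autosomal genes carried 56.6% of the variance and placed all 6 females of the series between 12 and 24.7 and all 6 males between -22.0 and -13.3. Siah2 KO female 1105, the shallowest of the 6 Siah2 KO libraries, was the female nearest to the males. In the labels the females' libraries have sample-sheet numbers 37 to 39 and the males' 49 to 51, and the sexes were deposited as separate tables, so sex and place in the run cannot be told apart.

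Of 8804 autosomal genes tested, 1011 were called between Siah2 KO females and males, which is 11.5% of them. Of these, 496 were higher in females (5.63% of those tested) and 515 were higher in males (5.85%). The differences ran from modest to very large. The median size of a called change was 0.948 on the log2 scale, and 462 called genes changed by more than 2-fold. Above 16-fold stood 15 genes higher in females and 22 higher in males. The 3 females and the 3 males did not overlap in CPM for 2705 of the 8804 genes (30.7%). On the sex chromosomes, 27 of 249 X-linked genes and 3 of 3 Y-linked genes were also called, and they are not followed further. The number of calls depended on single mice. It was 472 without male 1081, 532 without female 1070, 541 without female 1104 and 1029 without female 1105, and it was 339 when the 12 libraries of the series shared one estimate of spread.

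**Figure D1:**
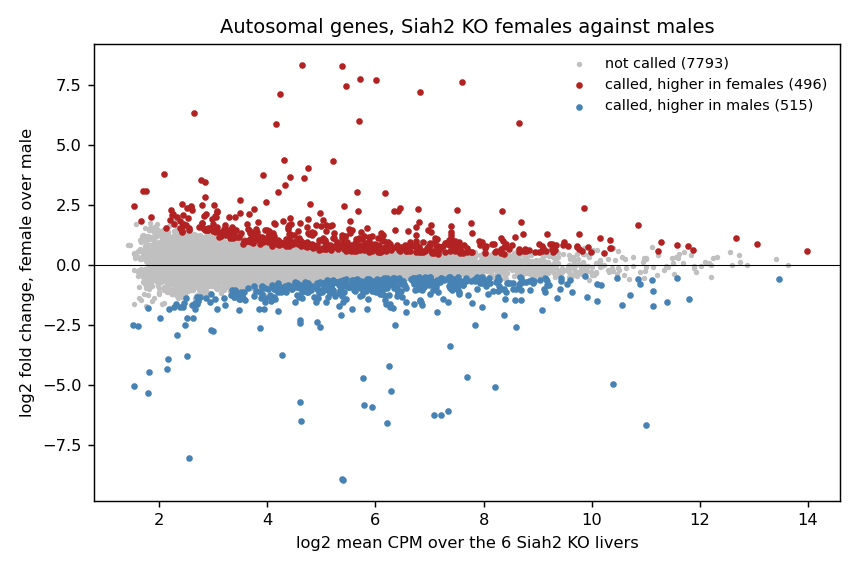
Each point is 1 of 8804 autosomal genes, with the log2 mean CPM over the 6 Siah2 KO livers on the x axis and the log2 fold change, female over male, on the y axis. The 496 genes called higher in females are red, the 515 called higher in males are blue and the 7793 others are grey; the largest differences reach beyond 8 in both directions.

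Where the 6 livers averaged 10 CPM or more and the sexes did not overlap, the called genes furthest apart included secreted proteins and enzymes of oxidation and sulphation. Leading in females were Sult3a1, a sulphotransferase of chromosome 10, and the cytochrome P450 genes Cyp2b13 (chromosome 7) and Cyp2c69 (chromosome 19). Leading in males were Cyp4a12b and Cyp4a12a, fatty acid and arachidonic acid hydroxylases, Mup14 (chromosome 4), a major urinary protein that carries pheromones, Serpina1e (chromosome 12), a protease inhibitor of the alpha-1-antitrypsin family, and Hsd3b5 (chromosome 3), a keto-steroid reductase. The proximal promoters of the first 3 genes of each direction that the RefSeq promoter table (GRCm38.p6) holds are shown because growth hormone acts on such genes through STAT5. Each runs 5′ to 3′ on the strand of the gene from 250 bases before to 50 bases after the annotated start, and capitals mark matches to TTCNNNGAA, the STAT5 motif, searched on both strands.

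Sult3a1 (female-higher, chr10:33857472-33857771, plus strand): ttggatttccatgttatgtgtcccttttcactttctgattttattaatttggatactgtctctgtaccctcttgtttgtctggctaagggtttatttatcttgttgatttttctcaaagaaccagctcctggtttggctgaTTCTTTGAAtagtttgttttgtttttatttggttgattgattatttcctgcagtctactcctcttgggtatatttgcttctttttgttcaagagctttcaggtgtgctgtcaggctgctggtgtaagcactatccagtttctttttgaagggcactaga
Cyp2b13 (female-higher, chr7:26061245-26061544, plus strand): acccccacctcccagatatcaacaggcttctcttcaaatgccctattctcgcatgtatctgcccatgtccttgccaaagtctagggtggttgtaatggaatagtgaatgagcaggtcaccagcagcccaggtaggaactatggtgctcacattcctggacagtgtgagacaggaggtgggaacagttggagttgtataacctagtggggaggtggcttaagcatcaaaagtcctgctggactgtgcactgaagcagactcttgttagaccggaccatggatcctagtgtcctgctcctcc
Cyp2c69 (female-higher, chr19:39886720-39887019, minus strand): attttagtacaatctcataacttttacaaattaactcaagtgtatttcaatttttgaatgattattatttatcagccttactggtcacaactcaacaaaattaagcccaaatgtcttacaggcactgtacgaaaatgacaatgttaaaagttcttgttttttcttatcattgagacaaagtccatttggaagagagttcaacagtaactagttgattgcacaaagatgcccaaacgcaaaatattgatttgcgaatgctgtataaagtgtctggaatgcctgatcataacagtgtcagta
Mup14 (male-higher, chr4:61303949-61304248, minus strand): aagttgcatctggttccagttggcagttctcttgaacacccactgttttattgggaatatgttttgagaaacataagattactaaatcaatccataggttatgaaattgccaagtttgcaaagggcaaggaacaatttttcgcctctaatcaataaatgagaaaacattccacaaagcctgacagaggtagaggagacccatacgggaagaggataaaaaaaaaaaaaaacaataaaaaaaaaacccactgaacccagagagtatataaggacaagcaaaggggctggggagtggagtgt
Serpina1e (male-higher, chr12:103956848-103957147, minus strand): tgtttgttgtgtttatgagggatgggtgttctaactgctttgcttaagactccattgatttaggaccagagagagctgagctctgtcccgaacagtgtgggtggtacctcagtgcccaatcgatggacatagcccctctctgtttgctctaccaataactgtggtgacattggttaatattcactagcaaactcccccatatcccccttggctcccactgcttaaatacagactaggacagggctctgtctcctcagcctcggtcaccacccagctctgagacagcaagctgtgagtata
Hsd3b5 (male-higher, chr3:98645485-98645784, minus strand): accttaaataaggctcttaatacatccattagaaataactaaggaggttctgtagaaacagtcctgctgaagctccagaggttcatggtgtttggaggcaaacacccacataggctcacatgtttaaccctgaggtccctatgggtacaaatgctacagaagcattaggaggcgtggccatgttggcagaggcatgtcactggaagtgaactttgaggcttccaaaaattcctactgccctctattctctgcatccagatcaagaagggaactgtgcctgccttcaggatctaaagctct

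Of these 6 windows, the one of Sult3a1 held a match, TTCTTTGAA starting at base 142. That window lies within the annotated span of the gene (chr10:33851020-33879475), so it surrounds an internal start and not the gene's 5′ end. The motif was found in 8.93% of 392 promoters of genes called higher in females, in 7.88% of 406 of those called higher in males, in 6.88% of 7107 of the autosomal genes tested and in 8.47% of 27025 in the whole table. The core ATTGAT, which HNF6 and CUX2 are known to bind, occurred in the windows of Sult3a1, Cyp2c69 and Serpina1e, and at 2 places in that of Mup14. It stood in 6.38% of the female-higher promoters, 8.37% of the male-higher ones, 4.35% of those tested and 7.76% of the whole table. The TATA box letters TATAAA occurred in the window of Cyp2c69, starting at base 261, which lies after the annotated start. They stood in 11.5% of the female-higher promoters, 9.61% of the male-higher ones, 7.37% of those tested and 14.2% of the whole table. A match is a run of letters, and no binding was measured here.

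Cyp2b9 had close values in the 3 females. It was counted at 227, 213 and 232 CPM in the Siah2 KO females and at 1.88, 1.74 and 0.986 in the males (7.23 ± 0.25, adjusted p = 1.75e-10). Its neighbour in the family, Cyp2b13, stood at 88.8, 105 and 54.2 CPM in females and at 0, 0.434 and 0.246 in males (adjusted p = 2.27e-08). With 2 counts over the 3 males, its ratio of 393 has a 95% counting interval of 108 to 3250. Both encode P450 enzymes of the CAR-responsive 2B group, and Cyp2b10, the other member tested, was also higher in females by 3.76 ± 0.39 (adjusted p = 1.56e-05).

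The steroid hydroxylase Cyp2a4 was read at 402, 615 and 144 CPM in females against 2.26, 1.74 and 1.73 in males (7.66 ± 0.53, adjusted p = 1.76e-07). Cyp2c40 and Cyp2c69, of one P450 subfamily, differed by 7.49 ± 0.47 and 7.77 ± 0.67 (adjusted p = 6.93e-08 and 2.27e-06). In each of these genes the groups were far apart, and female 1105 was the lowest female.

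Sult3a1 varied widely among females, at 29.5, 106 and 14.4 CPM, and had 1 count over the 3 males (adjusted p = 8.37e-05). Its ratio of 470 has a 95% counting interval of 83.9 to 18600. A1bg, a plasma glycoprotein of the immunoglobulin superfamily, stood at 32.7, 61.9 and 16.9 CPM in females and had 2 counts over the males (adjusted p = 1.3e-05). Hamp2, a relative of the iron hormone hepcidin, reached 930, 1010 and 435 CPM in females against 16.2, 19.5 and 5.42 in males (5.94 ± 0.40, adjusted p = 1.51e-07). Cyp2a22, another member of the 2A group, was uneven among females, at 200, 98.0 and 7.83 CPM against 2.64, 2.17 and 0.493 in males (6.02 ± 0.89, adjusted p = 0.000476), and limma-voom did not call it.

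**Figure D2:**
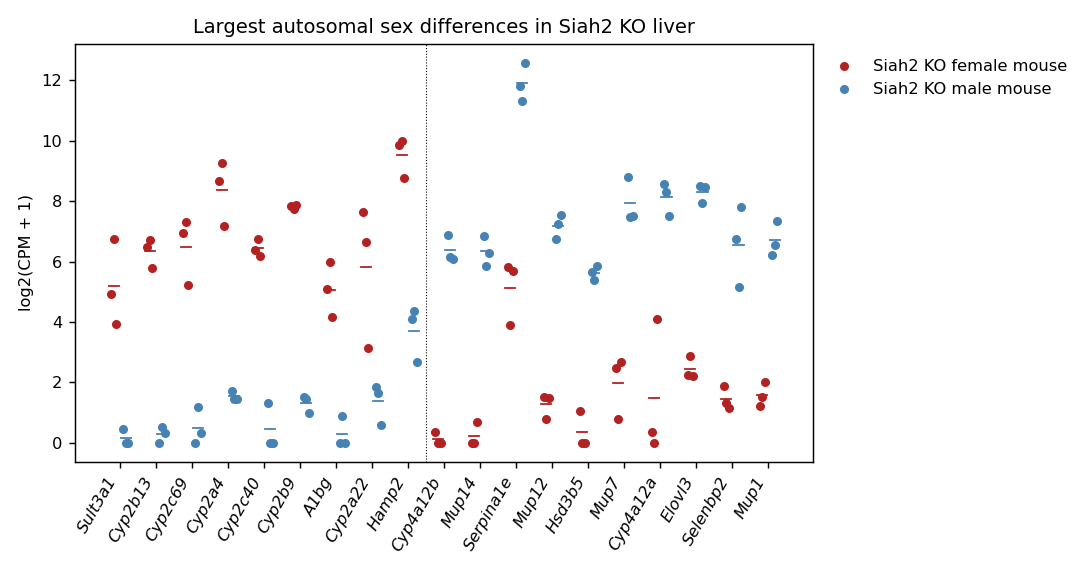
Each point is 1 Siah2 KO liver, with log2(CPM + 1) on the y axis and 9 of the 10 largest female-higher and the 10 largest male-higher autosomal genes on the x axis; bars are means of the 3 values of a sex. No gene shown has overlap between the 3 females and the 3 males, and the female values of Sult3a1, Cyp2a22 and Cyp2c69 spread more than those of Cyp2b9.

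Read as a list, the 14 tested female-biased enzymes of drug and steroid metabolism held 11 genes called higher in females and 1 called higher in males, with a median of 5.65 against -0.003 over all autosomal genes tested. Over all these genes, 5.63% were called higher in females and 5.85% higher in males. The list holds the Cyp2b, Cyp2c and Cyp2a4 genes above, but not Cyp2a22. It also contains Cyp17a1, which makes androgen precursors, at 47.4, 74.0 and 31.9 CPM in females and 2.64, 1.74 and 4.19 in males (4.07 ± 0.36, adjusted p = 3.24e-06). Aox1, an aldehyde oxidase, ran the other way at 14.9, 12.5 and 28.9 CPM in females and 29.8, 40.4 and 42.1 in males (-1.06 ± 0.28, adjusted p = 0.0249), and its call was lost in 4 of the 6 fits without 1 mouse. The filter passes genes read in a single sex, so members could enter the test through the sex where they are high. A further 10 genes of the list were too low or too uneven to be tested. One of them was Sult2a1, a hydroxysteroid sulphotransferase, with 52.8, 196 and 1.20 CPM in the females and 0 in each male.

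The 15 other female-biased liver genes showed the same split, with 11 called higher in females, 1 higher in males and a median of 2.56. Their share called was 80.0%, against 11.5% of all autosomal genes tested. Acot3, a peroxisomal acyl-CoA thioesterase, stood at 66.3, 74.0 and 71.0 CPM in females and at 1.88, 6.94 and 2.22 in males (4.36 ± 0.32, adjusted p = 4e-07). Abcd2, which carries very long chain acyl-CoA into peroxisomes, was counted at 100, 95.7 and 73.4 CPM against 7.54, 13.0 and 11.8 (3.06 ± 0.23, adjusted p = 4e-07). The member that ran the other way was Cspg5, a brain proteoglycan gene, with 2 counts over the 3 females and 59 over the males (adjusted p = 0.00299).

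The male-biased lists were as one-sided, and their members could likewise pass the filter through the sex where they are high. Of 13 tested male-biased enzymes, 12 were called, each higher in males (median -3.40), and of 8 other male-biased genes, 7 were called, each higher in males (median -4.71). Over all autosomal genes tested, 5.85% were called higher in males. Cyp4a12b had 1 count over the 3 females and stood at 117, 70.7 and 66.3 CPM in males (adjusted p = 2.34e-08). Cyp4a12a was at 0.271, 0 and 16.3 CPM in females and at 380, 315 and 182 in males (-6.24 ± 0.67, adjusted p = 2.59e-05). These copies are near-identical, so reads may have been shared between them. Mouse 1105 carried the highest female value of Cyp4a12a.

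Cyp2d9, a steroid 16-alpha-hydroxylase, was read at 14.9, 7 and 31.9 CPM in females and 578, 470 and 673 in males (-5.10 ± 0.35, adjusted p = 1.5e-07). Cyp7b1, which hydroxylates oxysterols and dehydroepiandrosterone, stood at 27.9, 20.3 and 40.3 CPM against 316, 284 and 312 (-3.40 ± 0.21, adjusted p = 6.77e-08). Hsd3b5 had 4 counts over the females and 49, 41.2 and 57.2 CPM in the males (-6.53 ± 0.46, adjusted p = 1.92e-07). Male values of these genes lay close together, and none came near a female value.

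Selenbp2, a selenium-binding protein, varied among males, at 106, 34.3 and 220 CPM in males and 2.71, 1.47 and 1.20 in females (-5.92 ± 0.64, adjusted p = 2.49e-05). Elovl3, an elongase of very long chain fatty acids, was steadier, at 364, 243 and 350 CPM against 3.79, 6.26 and 3.61 (-6.10 ± 0.26, adjusted p = 1.65e-09). Serpina1e reached 3580, 2560 and 6070 CPM in males and 55.2, 14 and 50 in females (-6.67 ± 0.45, adjusted p = 1.48e-07), and its family shares sequence. Serpina12, the adipokine vaspin, differed by -4.72 ± 0.26 (adjusted p = 2.24e-08).

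The major urinary proteins, lipocalins that carry pheromones into urine, were called higher in males for 10 of 10 members tested (median -5.11). The share over all autosomal genes tested was 5.85%. Mup genes could enter the test through the males alone, and the others of the 20 did not pass the filter. Together the 20 Mup genes of the table took 0.0766% to 0.172% of the counts in Siah2 KO females and 0.596% to 0.718% in the males. Mup20, known as darcin, was at 67.1, 45.7 and 140 CPM in females and 2930, 2200 and 2640 in males (-4.96 ± 0.33, adjusted p = 1.32e-07). Mup3 differed less, at 685, 895 and 1570 CPM against 3300, 3310 and 3760 (-1.72 ± 0.24, adjusted p = 0.000364). Mup12, Mup7 and Mup1 differed by -6.58, -6.24 and -5.82. Mup14 had 1 count over the 3 females and stood at 113, 57.3 and 77.6 CPM in males (adjusted p = 4.85e-08), a ratio of 669 with a 95% counting interval of 120 to 26500. Most Mup genes are near-identical and 2 of the 20 have no count in any of the 12 libraries, so the split of reads among members is uncertain.

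The growth hormone pathway itself had smaller differences than the sex-biased lists. Of 28 tested genes of growth hormone signalling and sex-biased regulators, 3 were called higher in females and 4 higher in males, with a median of -0.19. The receptor Ghr stood at 230, 217 and 239 CPM in females and 280, 266 and 232 in males (-0.18 ± 0.15, adjusted p = 0.491). Stat5b was at 133, 105 and 95.7 CPM against 129, 140 and 197 (-0.47 ± 0.19, adjusted p = 0.121). Neither these nor Jak2, Stat5a, Igf1, Socs2, Cish and Onecut1 passed the test, which does not show that they were equal, and Stat5b was called at -0.73 in thinned libraries.

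Bcl6, a repressor of female genes in male liver, had 9.47, 8.47 and 12.6 CPM in females and 19.2, 28.2 and 12.1 in males (-0.95 ± 0.33, adjusted p = 0.0763). It was called when male 1081 was left out, at -1.24, and so was Cish, a feedback inhibitor of cytokine receptors, at 1.94. Cux2, the repressor of male genes, was too low for the test, with 4.60, 1.84 and 7.22 CPM in females and 0 in each male. It passed the filter in 4 of the 6 fits without 1 mouse and was called in each of the 4, at adjusted p from 0.00751 to 0.0337. Trim24, a nuclear receptor cofactor long listed among female-biased liver genes, was called at 53.3, 53.0 and 48.8 CPM in females and 12.1, 11.7 and 17.3 in males (1.90 ± 0.21, adjusted p = 3.45e-05).

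The prolactin receptor Prlr was read at 216, 171 and 136 CPM in females and 38.5, 53.8 and 57.4 in males (1.81 ± 0.20, adjusted p = 3.83e-05). The forkhead factor Foxa3 was higher in males, at 160, 143 and 229 CPM against 67.9, 59.3 and 37.3 (-1.67 ± 0.22, adjusted p = 0.000221). Smaller male excesses were called for Onecut2, a homeobox factor, and for Hnf4a, the nuclear receptor central to hepatocyte identity (-0.66 and -0.63, adjusted p = 0.0111 and 0.0275). Igfbp1, an insulin-repressed binding protein, was higher in females by 0.93 ± 0.28 (adjusted p = 0.0423). Leaving out single mice ended the calls of Onecut2, Hnf4a and Igfbp1, with adjusted p of up to 0.0595, 0.15 and 0.181.

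Bile acid synthesis genes differed between the Siah2 KO sexes in both directions. Of 17 tested genes 5 were called higher in females and 4 higher in males (52.9%, against 11.5% of all autosomal genes tested). The median was 0.00. Cyp7a1, the rate-limiting enzyme of the classical pathway, stood at 323, 789 and 500 CPM in females and 77.3, 95.9 and 163 in males (2.26 ± 0.30, adjusted p = 0.000219). Cyp8b1, which directs synthesis to cholic acid, was at 21.4, 21.4 and 22.3 CPM against 59.9, 48.2 and 80.1 (-1.54 ± 0.21, adjusted p = 0.000302). The groups did not overlap in either gene.

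Cyp7b1 of the alternative pathway was higher in males, as given above. Scp2, the thiolase that shortens the bile acid side chain, was at 515, 626 and 594 CPM in females and 1610, 1550 and 1700 in males (-1.48 ± 0.15, adjusted p = 1.56e-05). Akr1d1, a steroid reductase of the pathway, and Cyp39a1, an oxysterol hydroxylase, were higher in females (1.43 and 1.57, adjusted p = 0.0144 and 0.0207), and their calls were lost in fits without 1 mouse, with adjusted p of up to 0.066 and 0.102. Without male 1081 the list held 4 calls in place of 9.

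Among 17 transporters of bile acids and organic anions, 4 were called higher in females and 5 higher in males. That is 52.9% of them, against 11.5% of all autosomal genes tested. The paralogues Slco1a1 and Slco1a4, both basolateral uptake carriers, ran in opposite directions. Slco1a1 was at 2.16, 7.36 and 45.7 CPM in females and 381, 401 and 407 in males (-4.69 ± 0.58, adjusted p = 9.29e-05), while Slco1a4 was at 396, 320 and 287 against 112, 85.1 and 102 (1.75 ± 0.17, adjusted p = 9.02e-06). Slc10a1, the sodium-dependent bile acid carrier NTCP, was higher in females by 1.02 ± 0.18, and the efflux pump Abcb1a by 2.24 ± 0.38 (adjusted p = 0.00238 and 0.0015). Abcg2, the canalicular pump BCRP, was higher in males by -1.13 ± 0.20 (adjusted p = 0.00185). Slc22a7, an anion exchanger, was called higher in males at low counts, and 5 of the 6 fits without 1 mouse lost it.

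**Figure D3:**
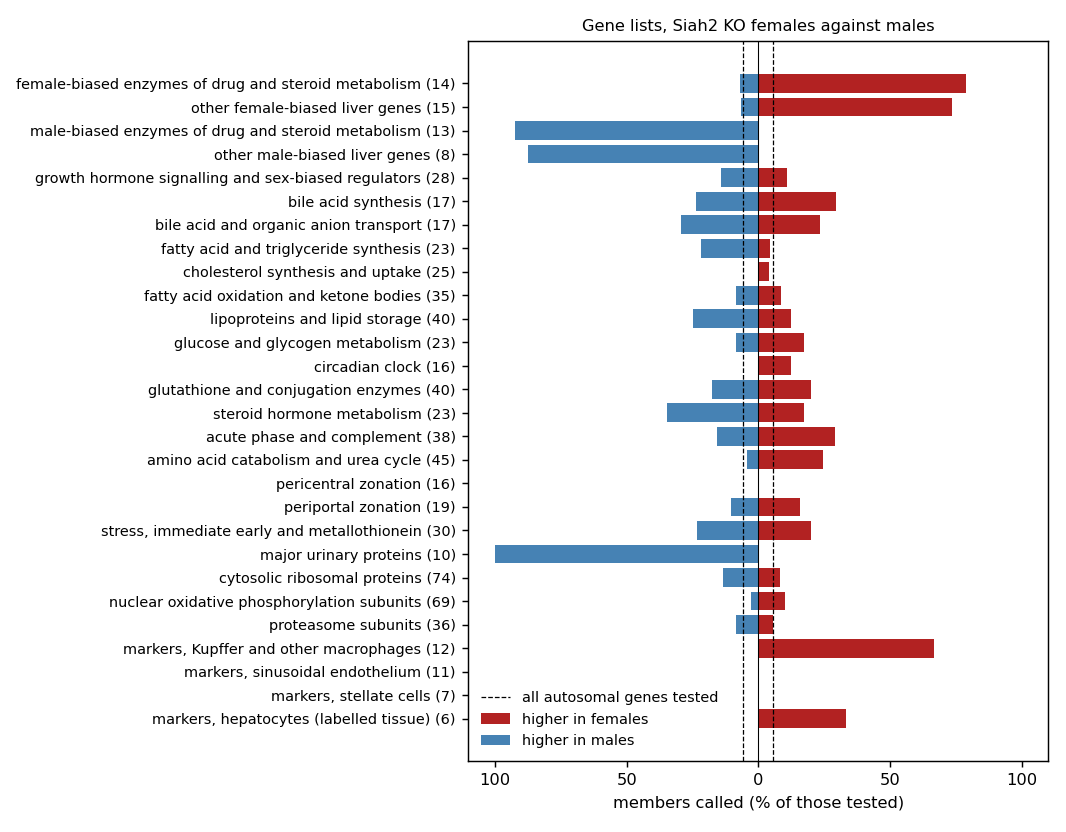
For each gene list with 5 or more members tested (number in brackets), bars give the percentage of tested members called higher in Siah2 KO females (red, to the right) and in males (blue, to the left); dashed lines mark 5.63% and 5.85%, the shares of all autosomal genes tested. The sex-biased lists and the major urinary proteins lie almost wholly on one side, while bile acid, lipid and conjugation lists hold calls on both.

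Enzymes that act on steroids or attach groups to foreign compounds were split by gene. Of 23 steroid hormone enzymes 4 were called higher in females and 8 higher in males, and of 40 glutathione and conjugation enzymes 8 and 7. These are 52.2% and 37.5% of the lists, against 11.5% of all autosomal genes tested. Gstp1, a glutathione transferase, stood at 56.0, 61.5 and 92.1 CPM in females and 421, 336 and 407 in males (-2.49 ± 0.20, adjusted p = 7.35e-07). Gclc, the catalytic subunit that limits glutathione synthesis, was at 81.2, 72.9 and 96.9 CPM against 216, 306 and 200 (-1.53 ± 0.19, adjusted p = 0.000104). The glucuronosyltransferase Ugt2b1 was higher in males too (-1.98 ± 0.22, adjusted p = 3.22e-05).

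Gstt3, another glutathione transferase, and the sulphotransferase Sult1d1 were higher in females, by 1.12 ± 0.18 and 1.15 ± 0.17 (adjusted p = 0.00108 and 0.000393). Akr1c20, an aldo-keto reductase of steroids, was at 95.2, 106 and 78.9 CPM in females and 52.8, 46.4 and 38 in males (1.05 ± 0.19, adjusted p = 0.00202). Over the whole table, 25 of 56 tested P450 genes were called (44.6%, against 11.5% of all autosomal genes tested). Of these, 15 were higher in females and 10 higher in males. All 3 tested Cyp2b genes were female-higher, while the 11 tested Cyp2c genes gave 5 female-higher and 2 male-higher calls.

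Lipid genes were called in both directions. Of 40 genes of lipoproteins and lipid storage, 10 were called higher in males and 5 higher in females. Together they make 37.5% of the list, against 11.5% of all autosomal genes tested. The carboxylesterase Ces3a was at 90.6, 99.1 and 139 CPM in females and 329, 311 and 347 in males (-1.59 ± 0.18, adjusted p = 3.03e-05), and its neighbour Ces3b differed by -1.53 ± 0.21 (adjusted p = 0.00031). Pnpla7, a lysophospholipase, was higher in males by -1.30 ± 0.18 (adjusted p = 0.000241). Apom, which carries sphingosine-1-phosphate on HDL, was higher in females at 222, 186 and 146 CPM against 32.8, 53.0 and 25.9 (2.34 ± 0.24, adjusted p = 1.67e-05). Apoa5, an activator of triglyceride clearance, stood at 3630, 3860 and 4280 CPM in females and 2400, 2220 and 2010 in males (0.83 ± 0.16, adjusted p = 0.00342).

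Among 23 genes of fatty acid and triglyceride synthesis, 5 were called higher in males and 1 higher in females. They are 26.1% of the list, against 11.5% of all autosomal genes tested. Mlxipl, the carbohydrate-sensing factor ChREBP, was at 130, 130 and 123 CPM in females and 215, 230 and 260 in males (-0.87 ± 0.15, adjusted p = 0.00142). Thrsp, a lipogenic cofactor, was the gene higher in females, at 272, 536 and 143 CPM against 161, 76.8 and 138 (1.35 ± 0.36, adjusted p = 0.0249). Its groups overlap, and 4 of the 6 fits without 1 mouse lost the call. Of 25 genes of cholesterol synthesis and uptake 1 was called (4.0%, against 11.5% of all autosomal genes tested). In one of the fits without 1 mouse 7 were called.

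Fatty acid oxidation and ketone body genes gave 3 calls in each direction of 35 tested (17.1% called, against 11.5% of all autosomal genes tested). Cpt1a, which commits acyl-CoA to mitochondrial import, was at 268, 384 and 320 CPM in females and 172, 161 and 148 in males (1.02 ± 0.16, adjusted p = 0.00105). Acaa1b, a peroxisomal thiolase, ran the other way at 1030, 1810 and 1450 CPM against 3440, 2810 and 2880 (-1.08 ± 0.20, adjusted p = 0.00258). Acot4, a peroxisomal succinyl-CoA thioesterase, was higher in females by 1.91 ± 0.25 (adjusted p = 0.000189). These peroxisomal genes thus differed in both directions.

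In glucose metabolism 4 of 23 genes were called higher in females and 2 higher in males (26.1%, against 11.5% of all autosomal genes tested). Ppp1r3c, a glycogen-targeting subunit, was higher in males (-1.33 ± 0.26, adjusted p = 0.00474). Fbp1 and Slc37a4, which serve gluconeogenesis and glucose release, were higher in females by 0.98 ± 0.18 and 1.14 ± 0.17 (adjusted p = 0.00293 and 0.000551), and Khk, the fructose kinase, by 0.86 ± 0.16 (adjusted p = 0.00329).

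Amino acid genes leaned to females. Of 45 tested, 11 were called higher in females and 2 higher in males (28.9%, against 11.5% of all autosomal genes tested). The median of the list was 0.46. Mat1a, which makes the liver's S-adenosylmethionine, was at 9620, 9640 and 7610 CPM in females and 4430, 4030 and 3730 in males (1.15 ± 0.17, adjusted p = 0.000538). Got1, an aspartate aminotransferase, and Asl, a urea cycle lyase, were higher in females by 1.30 ± 0.19 and 0.99 ± 0.17 (adjusted p = 0.000393 and 0.00142). Csad, the decarboxylase of taurine synthesis, was higher in males at 587, 591 and 495 CPM against 50.1, 252 and 312 in females (-1.46 ± 0.41, adjusted p = 0.0331), with the call lost in 4 of 6 fits without 1 mouse. The list count was 7 without male 1081 and 3 when the 12 libraries shared one fit.

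Acute phase and complement genes, most of them secreted by hepatocytes, were called in both directions. Of 38 genes 11 were called higher in females and 6 higher in males (44.7%, against 11.5% of all autosomal genes tested). C6, C8a and C8b of the terminal complement pathway were higher in males. C6 stood at 6.49, 7.73 and 9.63 CPM in females and 104, 162 and 168 in males (-4.23 ± 0.25, adjusted p = 4.29e-08). C8a was at 82.8, 88.4 and 166 CPM against 581, 730 and 692 (-2.59 ± 0.24, adjusted p = 3.77e-06), and C8b differed by -1.64 ± 0.16 (adjusted p = 1.16e-05). All 3 encode parts of the membrane attack complex.

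Higher in females was Orm2, an acute phase orosomucoid, at 79.3, 44.6 and 30.7 CPM against 17.7, 5.64 and 11.1 in males (2.19 ± 0.36, adjusted p = 0.00122). Serpina3m, a serpin of the antichymotrypsin cluster, was at 269, 252 and 191 CPM against 116, 82.5 and 104 (1.25 ± 0.18, adjusted p = 0.000357). Female 1070 had the highest Orm2 value of the 6 mice, and it was also highest for the metallothioneins below.

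The metal-binding metallothioneins Mt1 and Mt2 were higher in females. Mt2 was at 2650, 1180 and 809 CPM in females and 329, 191 and 376 in males (2.38 ± 0.35, adjusted p = 0.000515), and Mt1 differed by 1.80 ± 0.30 (adjusted p = 0.00133). Some chaperones of the list were higher in males, while the chaperone genes Hspd1 and Hspe1 were called higher in females (0.85 and 1.29). Hspa5, the endoplasmic reticulum chaperone BiP, stood at 1090, 1030 and 880 CPM in females and 2950, 2510 and 1630 in males (-1.24 ± 0.20, adjusted p = 0.00119), and Hsp90aa1 and Hsph1 differed by -1.23 ± 0.16 and -0.95 ± 0.19 (adjusted p = 0.000217 and 0.00474). Cirbp, a cold-inducible RNA-binding protein, was higher in females by 1.42 ± 0.25 (adjusted p = 0.00204). In all, 6 of 30 stress genes were called higher in females and 7 higher in males (43.3%, against 11.5% of all autosomal genes tested).

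Of 16 circadian clock genes tested at this one time of day, 2 were called (12.5%), near the 11.5% of all autosomal genes tested. Per3, a period repressor, was at 29.8, 47.1 and 34.3 CPM in females and 13.6, 13.0 and 7.15 in males (1.76 ± 0.28, adjusted p = 0.000968). For zonation, edgeR called 0 of 16 pericentral genes, 3 had an unadjusted p under 0.05, and DESeq2 and limma-voom called 2 each. Of 19 periportal genes 3 were called higher in females and 2 higher in males (26.3%). Among them was the protease Ctsc, at 77.7, 68.1 and 113 CPM against 33.5, 35.2 and 40.2 (1.23 ± 0.21, adjusted p = 0.00129). Hal and Arg1, of histidine and arginine breakdown, were higher in females by 0.96 and 0.73, and Cyp2f2, a P450 of the periportal zone, was higher in males by -0.70 (adjusted p = 0.00251, 0.00828 and 0.00663).

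The broad housekeeping families had medians near 0. Ribosomal proteins gave 6 calls higher in females and 10 higher in males of 74 (median -0.02), subunits of oxidative phosphorylation 7 and 2 of 69 (median 0.15), and proteasome subunits 2 and 3 of 36 (median -0.19). The shares called were 21.6%, 13.0% and 13.9%, in that order, against 11.5% of all autosomal genes tested. Without male 1081 the ribosomal and oxidative phosphorylation families held 2 calls each.

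Markers of other cells were read in the same bulk samples, in which fewer cells of a type and less RNA per cell cannot be told apart. Macrophage markers differed with sex: 8 of 12 autosomal markers were called higher in females and 0 higher in males, with a median of 1.52. Over all autosomal genes tested, 5.63% were called higher in females. In wild type livers 2 of 13 of these markers were called, each higher in females, with a median of 1.21. Of the 12 markers tested in each genotype, 11 had the same direction. The summed level of the list was 448 to 1020 CPM in Siah2 KO females and 141 to 299 CPM in the males. Clec4f, a lectin of Kupffer cells, was at 45.7, 31.7 and 42.1 CPM in females and 20.4, 11.3 and 9.12 in males (1.58 ± 0.28, adjusted p = 0.0021). The scavenger receptor Marco stood at 307, 29.8 and 48.8 CPM in females and 23.7, 15.6 and 11.3 in males, so that mouse 1070 alone carried most of it. Without mouse 1070, 4 of the 12 markers were called. The part of these cells in the acute phase and stress results was not tested.

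Of 11 endothelial, 7 stellate cell and 2 bile duct markers edgeR called 0, with 3, 1 and 0 at an unadjusted p under 0.05, and of these lists DESeq2 called 0 and limma-voom called 1 stellate cell marker. The hepatocyte markers summed to 43400 to 59200 CPM in females and 34300 to 41700 in males, with Alb and Ahsg called higher in females (0.60 and 0.86, adjusted p = 0.0383 and 0.0162). Of the 12 pancreatic acinar markers 8 were at 0 in all 6 Siah2 KO livers. Cela1 was called higher in males (-1.35, adjusted p = 0.0157), and so was the fat cell marker Plin4 (-1.13, adjusted p = 0.0296), while the fat cell list summed to 30.8 to 59.0 CPM in females and 58.9 to 160 CPM in males.

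**Figure D4:**
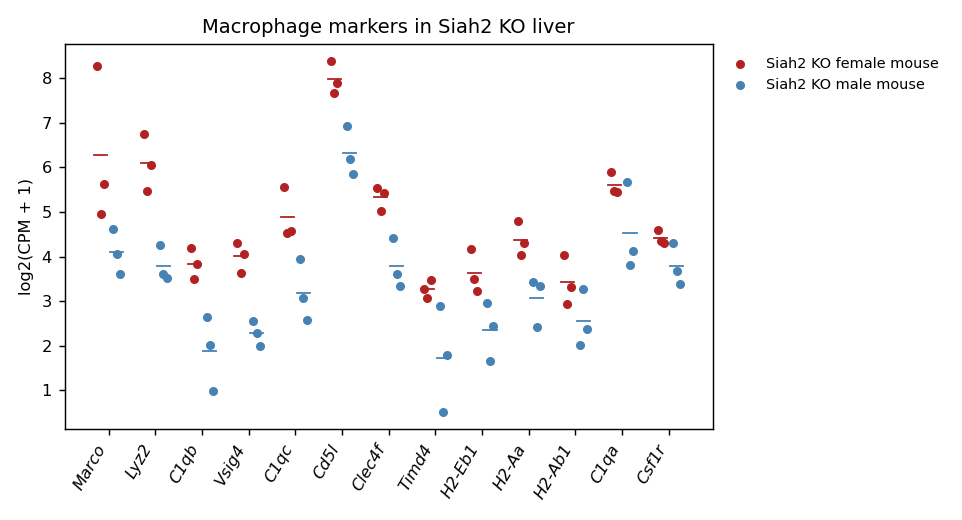
Each point is 1 Siah2 KO liver, with log2(CPM + 1) on the y axis and 13 tested macrophage markers on the x axis (12 autosomal and the X-linked Vsig4); bars are means of the 3 values of a sex. Female points lie above male points for most markers, and the highest Marco value, 307 CPM, belongs to female 1070.

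The wild type livers give the same comparison in other mice. Their females have sample-sheet numbers 34 to 36 and their males 46 to 48, in the same separate tables for each sex. An effect of place in the run could be shared by the genotypes, so like directions do not tell sex apart from it. With the same test, 118 of 9031 autosomal genes were called between wild type females and males (1.31%). The common coefficient of biological variation was 0.294 among wild type mice and 0.181 among Siah2 KO mice, and 0.199 among wild type mice without female 1091, whose counts stand apart and without which 713 genes were called. The smaller number of calls in wild type therefore does not show a smaller sex difference. Of the 1011 genes called in Siah2 KO, 995 were tested in wild type, and 713 of these had the same direction there (71.7%), against 56.1% of all 8604 autosomal genes tested in both. This share was higher for larger changes, from 65.8% for changes under 2-fold to 75.1% for 2- to 4-fold and 92.0% for changes above 4-fold. The genes called in both numbered 75, all in the same direction, which is 7.42% of the Siah2 KO calls and 63.6% of the wild type calls. Without wild type female 1091 they numbered 205, with 182 in the same direction.

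**Figure D5:**
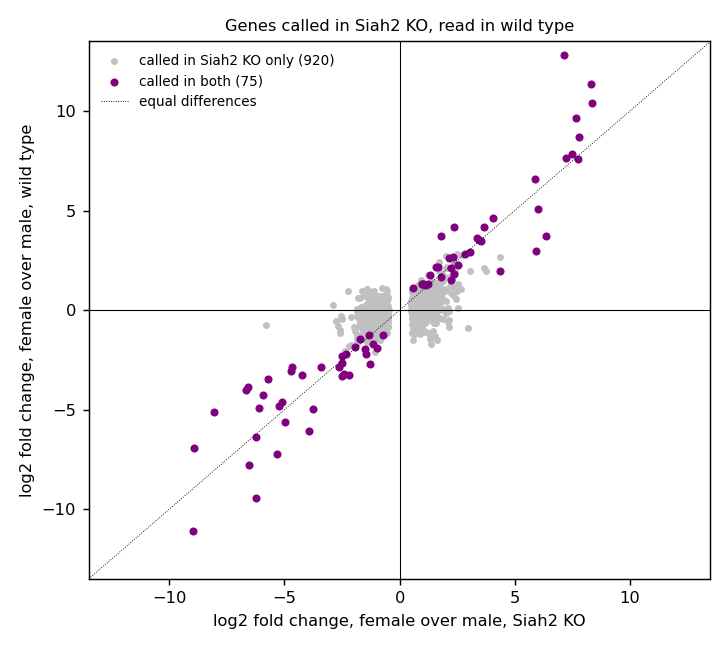
Each point is 1 of the 995 autosomal genes called in Siah2 KO livers and tested in wild type livers, with the log2 fold change, female over male, in Siah2 KO on the x axis and in wild type on the y axis; purple marks the 75 genes called in both, and the dotted line marks equal differences. Of the changes above 4-fold, 92 of 100 lie in the lower left or upper right quadrant, while smaller ones spread over all 4 quadrants.

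The sex-biased lists were chosen as genes of known sex bias, so like directions in wild type mice were foreseen and are no independent test. The female-biased enzymes gave 11 wild type calls, all higher in females, and all 14 members tested in both genotypes had the same direction. The male-biased enzymes gave 9 wild type calls, all higher in males, with 12 of 12 in the same direction. Cyp2b9 differed by 7.23 in Siah2 KO and 7.64 in wild type, Cyp2d9 by -5.10 and -4.61, and Cyp7b1 by -3.40 and -2.88. In the amino acid list, edgeR called 0 of 45 genes in wild type, 8 had an unadjusted p under 0.05, DESeq2 called 1 and limma-voom 0, and 25 of 45 had the same direction in both genotypes.

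Whether the sex difference itself changed with genotype was tested as the Siah2 KO difference minus the wild type difference over the 12 livers. It was called for 24 of 9478 autosomal genes (0.253%), 15 positive and 9 negative, with adjusted p close to the threshold. Of the 24 genes, 13 were also called between the Siah2 KO sexes, and in 23 the sex difference had opposite signs in the 2 genotypes. This is not a count of reversals, because genes picked for a large difference tend to differ in sign. It includes small Siah2 KO differences that were not called, such as 0.06 for Kpnb1 and 0.1 for Dusp11. Cyp8b1 was the one bile acid gene among them. Wild type females had 93.1, 80.4 and 60.5 CPM and wild type males 63.5, 33.2 and 43.6, so that the wild type difference was 0.78 where that in Siah2 KO was -1.54 (difference -2.29 ± 0.37, adjusted p = 0.046). Mup1 was the one major urinary protein, at 37.9, 35.7 and 2.23 CPM in wild type females and 52.0, 27.1 and 47.7 in wild type males (difference -5.07 ± 0.97, adjusted p = 0.0474). Its Siah2 KO values, at 1.35 to 3.01 CPM in females and 72.8 to 161 in males, do not overlap. In the female-biased and male-biased enzyme lists edgeR called 0 of 17 and 0 of 15 members for the difference, with 1 and 2 at an unadjusted p under 0.05, and DESeq2 and limma-voom called 0. The call of Cyp8b1 was lost in 9 of the 12 fits without 1 mouse, and that of Mup1 in 11. In each fit without 1 Siah2 KO mouse, 0 autosomal genes were called for the difference.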

How the data were processed

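The authors trimmed, mapped and counted the QuantSeq reads on Illumina BaseSpace and deposited raw read counts per gene symbol, in a separate table for each sex. The submitters' processing notes name STAR, DESeq and mm10 without giving their roles. The tables were joined by symbol and columns were assigned to samples by mouse number. Of 23420 symbols, 23240 were placed on a chromosome through RefSeq (GRCm38.p6), and 27 symbols that a spreadsheet had turned into dates stayed in the totals. Reads carry no molecular identifiers, so counting intervals (95%, exact Clopper-Pearson) cover counting error only.

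Siah2 KO females were compared with Siah2 KO males in edgeR 4.0.16 (filterByExpr, TMM, two-sided quasi-likelihood F test, Benjamini-Hochberg over all genes tested, threshold 0.05) in R 4.3.3. Wild type sexes were compared likewise, and the difference of the sex differences was fitted on the 12 libraries. In simulated counts every gene had the same spread, and a log2 change of 2 was put into 200 of the better-counted genes. The Siah2 KO fit (9109 genes) recovered 98.5% of them, and 5.74% of its calls were false. The wild type fit (9295 genes) recovered 97% and the difference of sex differences (9638 genes) 79.5%. The autosomal Siah2 KO calls had a median change of 0.948, so these rates were not measured for changes of that size or for unequal spread. Alternatives used DESeq2 1.42.0, limma-voom (limma 3.58.1), RLE scaling, other filters, thinned libraries, removal of Rn45s or of X and Y genes, one fit of all 12 libraries and each mouse left out. The named genes are Siah2 and the sex-linked checks, the 10 largest differences in each direction with at least 10 CPM and no overlap, up to 3 called genes per list and direction by p, the growth hormone regulators, and the 5 largest differences of sex differences in each direction. Members of symbol families and marker lists, Cyp2b10, Sult2a1, Hspd1 and Hspe1 were added after their values were seen. Some genes that the rule names are not reported here, though they remain in every fit and count. The members and gene lists were chosen with earlier results of these data known.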

Additional observations from a re-analysis of the deposited data

Results flagged for a closer look

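The sex difference in Siah2 KO livers differed from that in wild type livers, by the interaction term in edgeR, for 24 autosomal genes, at adjusted p between 0.046 and 0.0483. The 5 largest in each direction with a mean of at least 10 CPM are given here as the Siah2 KO difference minus the wild type difference on the log2 scale. The difference was -5.07 for Mup1, a major urinary protein, and -2.29 for Cyp8b1, the enzyme that directs bile acid synthesis to cholic acid. It was -1.86 for Lsm10, a subunit of the U7 particle that processes histone RNA, -1.84 for Plod1, a collagen lysyl hydroxylase, and -1.75 for Chtf8, a part of a clamp loader complex. In the positive direction it was 3.74 for Gtpbp10, a GTPase of mitochondrial ribosome assembly, 3.06 for Dusp11, an RNA phosphatase, 2.87 for Ost4, a subunit of the oligosaccharyltransferase, 2.82 for Alyref, an mRNA export factor, and 2.29 for Rcbtb1.

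Dusp11 and Rcbtb1 had like levels in the Siah2 KO sexes. Rcbtb1 stood at 383, 344 and 450 CPM in Siah2 KO females and 459, 307 and 332 in the males, and at 105, 113 and 37.9 CPM in wild type females and 327, 436 and 401 in wild type males. The wild type females were thus the group that stood apart. For Ost4 the Siah2 KO females were high, at 27.3, 32.8 and 31.9 CPM against 13.2, 11.3 and 8.13 in the Siah2 KO males. Wild type females stood at 11.2, 4.5 and 4.46 CPM and wild type males at 13.8, 11.6 and 24.4. The wild type difference thus ran the other way (-1.32, not called) and also enters the value of 2.87.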

How the results depend on the processing

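The 1011 autosomal calls between the Siah2 KO sexes became 861 with DESeq2, 1058 with limma-voom, 529 in thinned libraries and 339 when all 12 libraries shared one fit, and 472 to 1029 when 1 mouse was left out. The 118 wild type calls became 323 with DESeq2, 516 with no filter beyond 1 count, 47 with at least 10 counts in every library and 485 in one fit of all 12 libraries, and 38 to 713 with 1 mouse left out. The 24 calls for the difference of sex differences became 248 with DESeq2, 312 with no filter beyond 1 count and 8 in thinned libraries. With 1 mouse left out they became 0 to 507, the 507 without wild type female 1091 and 0 in each fit without 1 Siah2 KO mouse. The cause of these shifts was not tested, other than that fewer reads or mice enter the thinned and reduced fits.

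No named called gene changed direction under any alternative run, and of 94 named autosomal calls 76 held in each of the 6 fits without 1 mouse. One fit of all 12 libraries lost 26 of 98 named calls, sex-linked checks included. Changes of sign fell on genes that were not called: Jak2 at 0.16 and Stat5a at 0.01 in thinned libraries, and, with 1 mouse left out, Socs2 (-0.01 to 1.01), Onecut1 (-0.83 to 0.23), Dusp11 (-0.28 to 0.64) and Rcbtb1 (-0.01 to 0.29). No paired analysis was possible because the groups share no mouse numbers. With 3 mice a sex, small differences were not detectable: the smallest called change was 0.473 on the log2 scale.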

Other observations

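Of the 64 genes called more than 4-fold higher in Siah2 KO females, 36 are in none of the gene lists, and of the 45 called more than 4-fold higher in males, 18 are in none. The genes named here were chosen after their values were seen. Solute carriers of the Slc22 group of chromosome 19 ran in both directions. Slc22a26 was higher in females at 42.8, 25.4 and 37.3 CPM against 0, 1.74 and 0.246 in males (log2 fold change 5.87 ± 0.52, adjusted p = 2.83e-06 in edgeR). Slc22a27 was at 15.4, 13.3 and 8.43 CPM in females and 0, 0.434 and 0 in males (adjusted p = 3.82e-05). Slc22a28 was higher in males, at 12.1, 14.3 and 8.63 CPM, and had no count in the 3 females (adjusted p = 8.28e-05). Slc16a5, a monocarboxylate transporter, was higher in females by 3.65 ± 0.25 (adjusted p = 1.76e-07), and Nat8, an N-acetyltransferase, was higher in males by -3.75 ± 0.33 (adjusted p = 3.24e-06). Ccnd1, the cyclin that drives entry into S phase, was higher in females by 2.31 ± 0.28 (adjusted p = 8.79e-05), and Pfkfb3, a glycolytic regulator, was higher in males by -2.57 ± 0.25 (adjusted p = 7.94e-06).

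Female-higher genes outside the lists also include Ctss, Tyrobp, Cyba, Ccl6 and Cxcr6, which immune cells are known to express. Ctss, a lysosomal protease, differed by 2.27 ± 0.25 and Ccl6, a chemokine, by 2.86 ± 0.47 (adjusted p = 3.06e-05 and 0.00118). The macrophage marker list moved the same way, and its part in these values was not tested.

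Siah2 KO female 1105 was nearer to the other sex than its group mates on genes chosen in other animals. On 116 genes called between the wild type sexes and without tied values, mouse 1105 was the Siah2 KO female nearest to the male direction for 79 (68.1%), against 24 for mouse 1070 and 13 for mouse 1104. Among the Siah2 KO males, mouse 1076 was nearest to the female direction for 55 of 116 (47.4%), against 30 and 31 for the others. Mouse 1105 has the fewest counts of the 6 Siah2 KO libraries and a Rn45s share of 14.9%, and mouse 1076 has the highest Rn45s share, 17.9%.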
